A study of Homo sapiens with 2 samples.

Results

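The cells described here are the HepaRG cells with the highest expression of an integrated stress response (ISR) programme among cells that were low in albumin and low in mitotic transcripts. Cells qualified when they had at least 500 genes, at least 1000 unique molecular identifiers (UMIs), at most 25% mitochondrial UMIs, fewer than 5 ALB UMIs and fewer than 5 UMIs of TOP2A, MKI67 and CENPF together per 10000. Of 9589 barcodes, 9348 passed the quality limits and 4017 qualified. Each qualifying cell was scored by the mean of ln(1 + UMIs per 10000) over 10 markers: ATF4, DDIT3, TRIB3, ASNS, CHAC1, SESN2, PSAT1, PHGDH, MTHFD2 and STC2. The top 5% in each library, 99 cells of replicate 1 and 102 cells of replicate 2, are called ISR-high cells, 201 in all. The members were thus chosen by the measured levels of these 10 genes. They were set against the lower 50% by the same score, 986 and 1023 cells, called lower-scoring cells.

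HepaRG is an established human hepatic line, obtained as terminally differentiated cells and used in toxicology as a liver model. Both libraries came from cells grown for 7 days on rat tail collagen and then given the vehicle, 0.1% dimethyl sulfoxide (DMSO), for 24 h, and both carry the same biological replicate label, 1. No chemical stressor was added in either library, so ISR-high and lower-scoring cells shared line, medium, vehicle and dissociation. The cells were dissociated in trypsin and collagenase with inhibitors of transcription and translation, fixed, and captured in droplets with a kit that counts transcript ends, with 10000 cells loaded per library.

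In the integrated stress response, kinases that sense amino acid shortage, ER stress, heme deficiency or viral RNA phosphorylate the translation factor eIF2. Bulk protein synthesis then slows while translation of ATF4 mRNA is favoured. ATF4 is a transcription factor that turns on genes for amino acid import and synthesis, for charging tRNAs and for the later, CHOP-dependent part of the response. In liver cells this programme is known for tying amino acid supply to ER and mitochondrial function.

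The ATF4 partner sites known as C/EBP-ATF response elements are commonly written TGATGNAA on one strand and TTNCATCA on the other. RefSeq promoters (GRCh38.p14, 250 bases before to 50 after the start) held these letters on either strand for 6 of the 16 matched cytosolic aminoacyl-tRNA synthetase genes of 20 (37.5%), and for 3 of the 10 matched amino acid transporter genes of 11. Of all 27305 promoters, 3.67% held them. Shares were lower in other lists: 2 of 16 matched promoters (12.5%) for 19 further ATF4 and CHOP targets and regulators. They were 1 of 21 for ER chaperones and unfolded protein response genes and 0 of 12 for S phase genes. Stretches of 30 bases are shown for the 6 synthetases, for a pair of transporters and for the score markers ASNS and CHAC1, 5′ to 3′ on the gene's strand with the matched letters in capitals. They are shown so that the matched letters and the bases around them can be read beside the levels of these genes.
AARS (chr16:70289675-70289704, minus strand): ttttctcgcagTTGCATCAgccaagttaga
CARS (chr11:3057407-3057436, minus strand): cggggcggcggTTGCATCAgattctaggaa
IARS (chr9:92293692-92293721, minus strand): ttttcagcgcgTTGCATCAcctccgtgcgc
MARS (chr12:57488053-57488082, plus strand): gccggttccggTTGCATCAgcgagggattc
NARS (chr18:57621804-57621833, minus strand): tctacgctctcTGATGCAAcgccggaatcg
TARS (chr5:33440956-33440985, plus strand): gcgcctttcgaTTGCATCAgctggtccagc
SLC38A1 (chr12:46266502-46266531, minus strand): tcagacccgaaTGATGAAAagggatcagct
SLC7A1 (chr13:29595663-29595692, minus strand): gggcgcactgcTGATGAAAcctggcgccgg
ASNS (chr7:97872458-97872487, minus strand): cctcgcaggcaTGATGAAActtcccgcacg
CHAC1 (chr15:40953251-40953280, plus strand): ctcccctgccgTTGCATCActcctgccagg

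All 6 synthetases shown and CHAC1 have TTGCATCA or its reverse complement, while ASNS, SLC38A1 and SLC7A1 have TGATGAAA. The match began 187 bases upstream of the RefSeq start in AARS, 13 in IARS, 4 in MARS and 2 in CARS, and at transcribed base 3 in TARS and 15 in NARS. In ASNS it began 68 bases upstream and in CHAC1 209 bases upstream. By GENCODE 29, the stretch lay outside every annotated exon of AARS and of SLC38A1, and overlapped an exon of at least 1 annotated transcript in the other genes shown. For SLC38A1 alone, the bases just after the RefSeq start were not found in any GENCODE 29 transcript of the gene. A match of letters is a description and shows no binding.

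The score was highest at 0.863 in replicate 1 and 0.885 in replicate 2, and the highest lower-scoring cell stood at 0.151. The choice of cells fell on a continuous scale. The 10 cells just inside the threshold scored 0.430 to 0.441 in replicate 1 and 0.428 to 0.437 in replicate 2, and the 10 just outside scored 0.420 to 0.430 and 0.418 to 0.428. ISR-high cells had a median of 6 and 5 of the 10 markers detected, against 1 and 1 in lower-scoring cells. They were also deeper, with a median of 18406 and 10678 UMIs against 14818 and 8839, and had less mitochondrial RNA, 6.84% and 6.94% against 9.56% and 9.99%. The ISR-high sums held 1834837 and 1169788 UMIs and the lower-scoring sums 15197575 and 9429002. Of the 201 cells, 124 (61.7%) were again in the top 5% after every cell had been thinned to 4000 UMIs.

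The marker levels chose the cells and are given without a test, in CPM (UMIs scaled to a total of 1000000 per sum) for replicates 1 and 2. ATF4 stood at 223 and 236 CPM in ISR-high cells, against 27.1 and 25.7 in lower-scoring cells. DDIT3, which encodes CHOP, stood at 87.2 and 117 CPM against 8.22 and 7.21, and the pseudokinase gene TRIB3 at 83.9 and 71.8 CPM against 5.92 and 4.98. The serine synthesis gene PSAT1 stood at 308 and 309 CPM against 31.3 and 26.5, and PHGDH, which acts before it in the same pathway, at 213 and 220 CPM against 26.5 and 25.6. CHAC1, which encodes a glutathione-degrading enzyme, had 25.6 and 20.5 CPM against 0.20 and 0.42. Asparagine synthetase (ASNS) had 7 and 9 UMIs in ISR-high cells and the folate enzyme gene MTHFD2 had 1 and 2, so both were close to 0 in these libraries and the score rested on the other 8 markers.

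Each marker was then read in cells ranked by the other 9 alone, which asks whether the markers rise in the same cells. In the top 5% so ranked, ATF4 averaged 196 ± 1.48 CPM, against 47.6 ± 2.53 CPM in the lower 50% (SD, n = 2), a ratio of 4.12. DDIT3 averaged 75.2 ± 14.1 against 15.6 ± 1.00 CPM, TRIB3 62.3 ± 13.1 against 9.85 ± 0.78 CPM and STC2, which encodes the secreted stanniocalcin-2, 28.9 ± 4.00 against 5.46 ± 0.38 CPM. PSAT1 averaged 249.5 ± 29.4 against 55.3 ± 4.93 CPM, and SESN2, whose product restrains mTORC1, 64.1 ± 0.03 against 26.5 ± 0.41 CPM. The largest ratio was that of CHAC1, 18.3 ± 4.76 against 0.58 ± 0.08 CPM. For the 8 detected markers both libraries of the top group lay above both of the lower group. MTHFD2 went the other way on few counts. It had 0 UMIs in the top 5% of both libraries, against 20 and 11 in the lower 50% (1.32 and 1.17 CPM). ASNS had 6 and 5 UMIs in the top 5% (3.26 and 4.29 CPM), against 0.39 and 0.53 CPM in the lower 50%. With cells thinned to 4000 UMIs before ranking, the ratios were smaller, 2.83 for ATF4 and 12.6 for CHAC1.

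**Figure D1:**
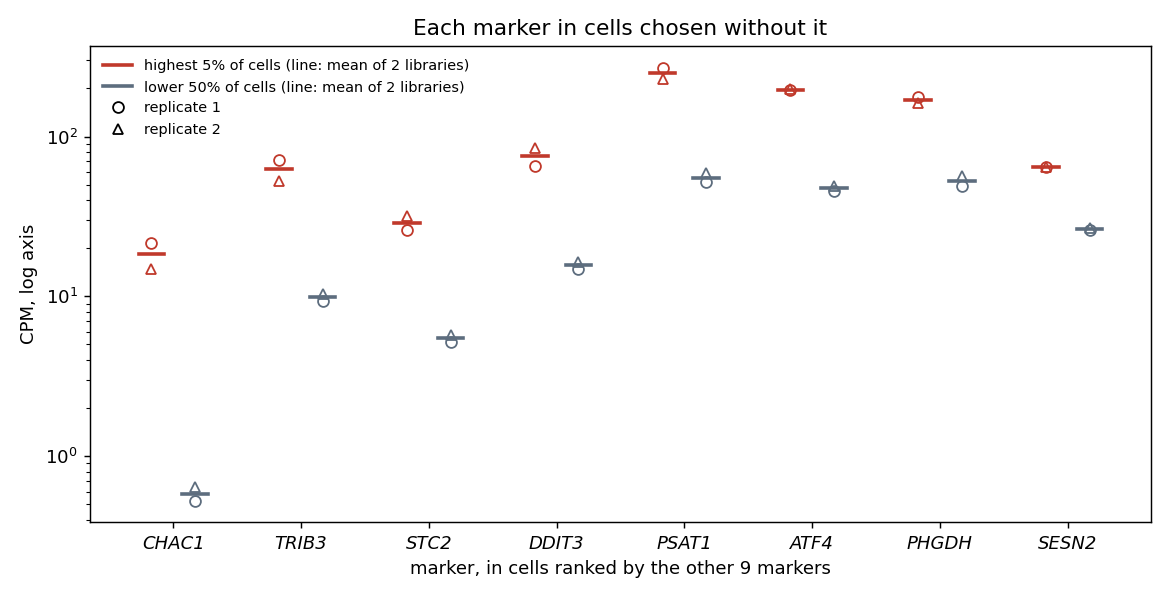
CPM (log axis) of 8 markers in the top 5% and the lower 50% of cells, ranked by the other 9 markers. Symbols are the 2 libraries and lines their means. All 8 markers are higher in the top 5% in both libraries, with the widest gap for CHAC1 and the narrowest for SESN2.

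Of the 201 cells in the top 5% by the regulator markers alone (ATF4, DDIT3, TRIB3, CHAC1 and SESN2), 63 (31.3%) were also in the top 5% by the remaining 5, which is 31.3% of that list too. Of the same 201 cells, 164 (81.6%) were in the upper 50% by those remaining markers. Few UMIs per marker and cell enter these rankings, and the part of counting noise in the overlap was not tested.

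Genes other than the markers were compared in sums of UMIs per library and score group, with edgeR's quasi-likelihood test and the library as a block. Of 16250 genes outside the rule, 1919 were higher in ISR-high cells (11.8%) and 1654 lower (10.2%) at an adjusted p under 0.05. At least 2-fold changes made up 362 of the higher calls (2.23%) and 514 of the lower calls (3.16%). The median log2 fold change over all 16250 genes was −0.02. The p-values measure spread among 6 sums of 2 libraries that may be technical replicates, and the groups were cut from the same cells, so they do not describe independent cultures. A higher summed level does not by itself tell more cells with a transcript from more transcript per cell, and this split was not made for single genes.

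The largest rises among genes with at least 20 CPM were in amino acid import, alanine and pyruvate metabolism and tRNA charging. SLC7A11, the cystine importer that feeds glutathione synthesis, had 262 and 252 CPM in ISR-high cells, against 49.3 and 54.0 in lower-scoring cells. Its log2 fold change was 2.36 ± 0.08 (SE, adjusted p = 1.1e-28). EIF4EBP1, a repressor of cap-dependent translation, had 317 and 335 CPM against 73.5 and 88.0 (log2 fold change 2.05 ± 0.07, adjusted p = 3.8e-28). The alanine aminotransferase GPT2 had 34.3 and 33.3 CPM against 6.45 and 7.74 (2.31 ± 0.20, adjusted p = 4.0e-13), and the mitochondrial PEP carboxykinase PCK2 70.3 and 68.4 CPM against 15.1 and 17.9 (2.12 ± 0.14, adjusted p = 4.9e-17). In each of these genes, both ISR-high sums were well above both lower-scoring sums, which was largely set by picking them among the largest called rises.

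Rises of similar size occurred in genes outside amino acid metabolism. The long noncoding RNA LINC01133 had 50.7 and 45.3 CPM against 7.04 and 8.91, the largest rise under the rule for named genes (log2 fold change 2.66 ± 0.18, adjusted p = 1.3e-16). IGFBP3, a secreted carrier of insulin-like growth factors, had 118 and 143 CPM against 29.7 and 30.3 (2.12 ± 0.11). IGF2BP3, an mRNA-binding protein of fetal and tumour cells, had 49.1 and 51.3 CPM against 11.7 and 12.5 (2.08 ± 0.16). The hair keratin gene KRT81 had 77.4 and 38.5 CPM against 13.9 and 12.9 (2.22 ± 0.17), a value that is uncertain because near-identical keratin copies can share its reads.

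Among 19 further ATF4 and CHOP targets and regulators, 17 were tested, 10 were higher and 1 lower, with a median log2 fold change of 1.09. NUPR1, a stress-induced chromatin factor, had 414 and 445 CPM in ISR-high cells, against 174 and 177 in lower-scoring cells (log2 fold change 1.31 ± 0.06, adjusted p = 2.0e-23). GDF15, a secreted stress hormone, had 302 and 292 CPM against 129 and 137 (1.19 ± 0.07, adjusted p = 1.5e-19), and DDIT4, an mTORC1 inhibitor, 237 and 242 CPM against 113 and 115 (1.09 ± 0.07, adjusted p = 2.2e-17). XPOT, the tRNA exporter, CEBPG, a heterodimer partner of ATF4, and the transcription factor gene ATF3 rose by 1.68 ± 0.12, 1.76 ± 0.17 and 1.30 ± 0.18 on the log2 scale. PPP1R15A (GADD34), which directs dephosphorylation of eIF2, rose by 1.13 ± 0.16.

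The list did not move as 1 block. CEBPB, which encodes another partner of ATF4, did not pass the test, with 201 and 220 CPM in ISR-high cells and 216 and 218 in lower-scoring cells (adjusted p = 0.816). KLHL24 was lower, at 16.9 and 14.5 CPM against 44.1 and 42.2 (log2 fold change −1.42 ± 0.19, adjusted p = 3.4e-08).

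Of 11 amino acid transporter genes, 9 were higher and 0 lower, with a median log2 fold change of 1.54, and they summed to 1245 and 1141 CPM in ISR-high cells, against 544 and 564 in lower-scoring cells. The glutamine carrier SLC1A5 had 162 and 150.5 CPM against 39.5 and 43.8 (log2 fold change 1.96 ± 0.10, adjusted p = 4.3e-22). SLC3A2, the heavy chain shared by SLC7A11 and SLC7A5, had 237 and 241 CPM against 78.8 and 89.8 (1.54 ± 0.08, adjusted p = 7.9e-22). The leucine carrier SLC7A5 itself was scarce, at 16.9 and 19.7 CPM against 2.04 and 2.55 (3.02 ± 0.31). The cationic amino acid carrier SLC7A1 and the glutamine carrier SLC38A1, with stretches near their RefSeq starts printed above, rose by 1.42 ± 0.16 and 0.99 ± 0.08. SLC38A2, a close relative of SLC38A1, did not pass the test, with 164 and 138 CPM against 161 and 152 (adjusted p = 0.960).

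Of the 20 cytosolic aminoacyl-tRNA synthetase genes, whose enzymes load amino acids onto tRNA, 15 were higher and 0 lower, with a median log2 fold change of 0.76. The list summed to 2643 and 2509 CPM in ISR-high cells, against 1408 and 1415 in lower-scoring cells. The glycyl enzyme gene GARS had 356 and 310.3 CPM against 86.5 and 81.5 (log2 fold change 2.02 ± 0.07, adjusted p = 3.3e-28), and the methionyl gene MARS 76.8 and 86.3 CPM against 21.9 and 20.9 (1.93 ± 0.13, adjusted p = 3.3e-17). WARS, YARS and AARS rose by 1.89 ± 0.14, 1.49 ± 0.10 and 1.44 ± 0.12.

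The family varied widely around that median. All 6 synthetases with the printed letters were among the 15 that rose, from NARS at 0.51 ± 0.07 to MARS at 1.93. Of the other 14 synthetases, which include those without a matched promoter, 9 also rose, among them GARS and WARS. DARS and RARS did not pass the test: DARS had 101 and 93.2 CPM against 93.4 and 98.8, and RARS had 82.8 and 103 CPM against 84.0 and 86.6.

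Among 13 tested serine, one-carbon, proline and cysteine enzyme genes, 7 were higher and 2 lower, with a median log2 fold change of 0.92. SHMT2, the mitochondrial enzyme that splits serine, had 111 and 127 CPM in ISR-high cells, against 41.4 and 44.8 in lower-scoring cells. The mitochondrial folate enzyme gene MTHFD1L had 168 and 171 CPM against 73.2 and 73.8. PSPH, which completes serine synthesis after PHGDH and PSAT1, rose by 1.17 ± 0.12 and CTH, which makes cysteine from cystathionine, by 2.86 ± 0.25. The cytosolic counterpart of SHMT2, SHMT1, had 27.8 and 38.5 CPM against 23.8 and 28.7 and did not pass the test (adjusted p = 0.187). The 2 lower genes act on glutamine and aspartate. Glutamine synthetase (GLUL) had 125 and 117 CPM against 278 and 284 (−1.18 ± 0.08, adjusted p = 3.9e-17), and the cytosolic aspartate aminotransferase GOT1 73.0 and 81.2 CPM against 118 and 113 (−0.58 ± 0.10, adjusted p = 1.2e-05).

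**Figure D2:**
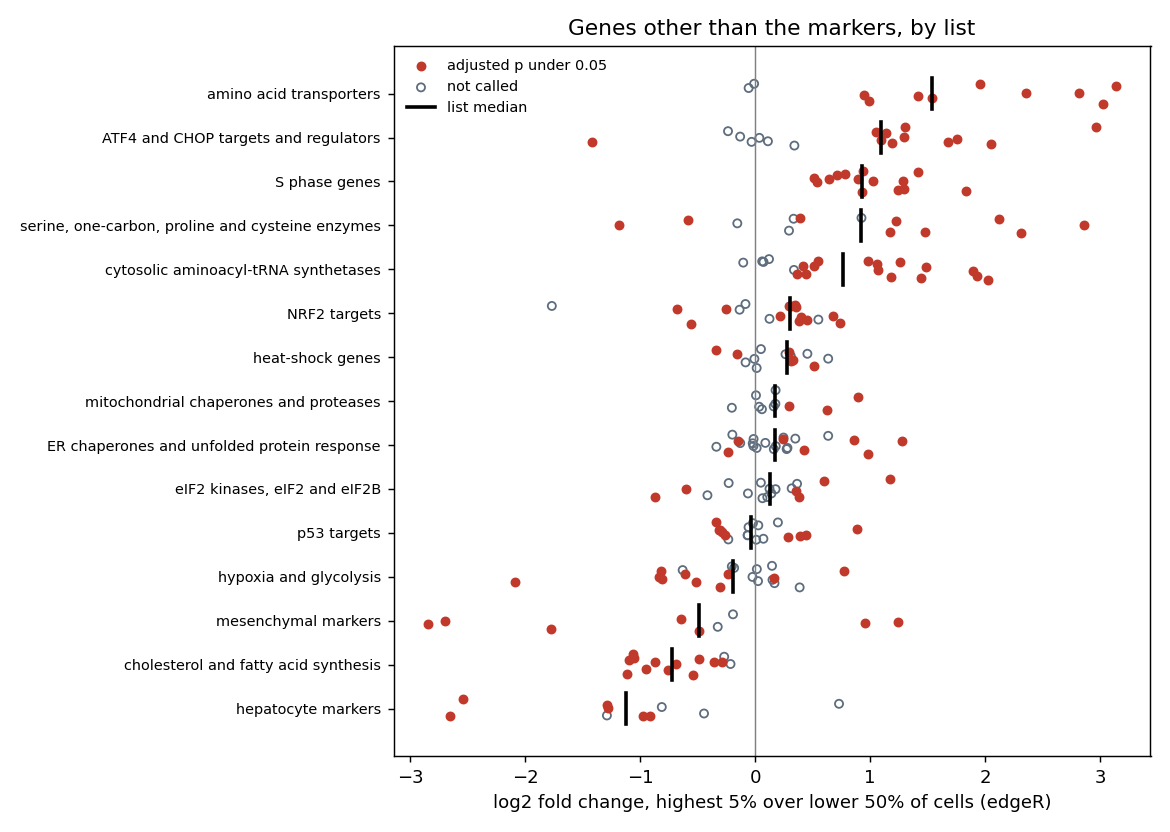
Log2 fold change of each tested gene, ISR-high over lower-scoring cells, in 15 lists with the score markers and other rule genes left out. Filled points had an adjusted p under 0.05 and black bars are list medians, which run from 1.54 for amino acid transporters at the top to −1.12 for hepatocyte markers at the bottom.

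Transcripts of genes that act upstream of ATF4 moved in both directions, and their levels do not show whether the kinases were active. Of 17 genes for eIF2 kinases, eIF2, its exchange factor and their regulators, 4 were higher and 2 lower, with a median log2 fold change of 0.13. Over all 16250 genes, 11.8% were higher and 10.2% lower. EIF2S2, the beta subunit of eIF2, stood out at 391 and 363 CPM in ISR-high cells, against 169 and 175 in lower-scoring cells (1.17 ± 0.06, adjusted p = 1.0e-20). EIF2AK4 (GCN2), the kinase that senses uncharged tRNA, had 179 and 160 CPM against 166 and 157 and did not pass the test (adjusted p = 0.384). OMA1 and DELE1, which relay mitochondrial stress to eIF2, were lower, with log2 fold changes of −0.87 ± 0.25 for OMA1 and −0.60 ± 0.19 for DELE1. Both were scarce, with 18 and 11 UMIs of OMA1 and 32 and 23 of DELE1 in ISR-high cells. With DESeq2, and with cells thinned to 4000 UMIs, 0 genes of this list were lower.

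ER chaperones and the other tested unfolded protein response genes, which the ATF6 and IRE1 branches drive, were mixed. Of 22, 5 were higher and 2 lower, with a median log2 fold change of 0.17 and sums of 4042 and 4154 CPM in ISR-high cells, against 4087 and 4020 in lower-scoring cells. The transcription factor gene XBP1 had 79.6 and 85.5 CPM against 32.5 and 36.9 (1.28 ± 0.12, adjusted p = 2.0e-12). HERPUD1, which acts in ER-associated degradation, had 97.6 and 115 CPM against 53.7 and 54.1 (0.98 ± 0.10, adjusted p = 8.7e-11), and the BiP gene HSPA5 548 and 502 CPM against 407 and 393 (0.42 ± 0.05, adjusted p = 2.2e-08). HSPA5 was lower in cells ranked by the 5 non-regulator markers alone (−0.19, adjusted p = 0.0371). The chaperone gene HSP90B1 had 797 and 775 CPM against 954 and 923 (−0.23 ± 0.05, adjusted p = 2.4e-04).

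Mitochondrial chaperones and proteases had 3 of 10 higher and 0 lower. They were HSPA9, the mitochondrial Hsp70 (305 and 301 CPM against 199 and 201, log2 fold change 0.62 ± 0.06), the protease gene LONP1 (0.90 ± 0.13) and HSPD1 (0.29 ± 0.05). NRF2 targets had 10 of 18 higher and 3 lower with a median of 0.31, and SLC7A11 is a known target of NRF2 as well as of ATF4. In that list thioredoxin (TXN) had 2341 and 2173 CPM against 1617 and 1750 (0.45 ± 0.05), while the reductase gene AKR1B10 had 67.0 and 108 CPM against 131 and 142 (−0.68 ± 0.10). p53 targets had 4 of 18 higher and 5 lower. GADD45A, a growth arrest gene that ATF4 also regulates, rose by 0.88 ± 0.06, and the cell cycle inhibitor CDKN1A had 316 and 312 CPM against 311 and 316 and did not pass the test (adjusted p = 0.809).

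Cholesterol and fatty acid synthesis genes fell. Of 14, 12 were lower and 0 higher, with a median log2 fold change of −0.72, and they summed to 892 and 988 CPM in ISR-high cells, against 1558 and 1499 in lower-scoring cells. Fatty acid synthase (FASN) had 64.3 and 67.5 CPM against 143 and 142 (−1.09 ± 0.10, adjusted p = 1.8e-12). HMGCS1, an early enzyme of the mevalonate pathway, had 53.4 and 62.4 CPM against 122 and 118 (−1.05 ± 0.11, adjusted p = 5.7e-11). INSIG1, which restrains SREBP processing and is itself an SREBP target, had 39.8 and 66.7 CPM against 112 and 110 (−1.12 ± 0.12). For each of these 3 genes both ISR-high sums lay under both lower-scoring sums, which was largely set by picking them among the called genes. Hypoxia and glycolysis genes had 2 of 20 higher and 8 lower, with a median log2 fold change of −0.19. The carbonic anhydrase gene CA9 was scarce, with 6 and 4 UMIs in ISR-high cells. It had 3.27 and 3.42 CPM there, against 15.8 and 12.4 in lower-scoring cells (−2.09 ± 0.37, adjusted p = 1.6e-05). The angiogenic factor gene VEGFA, which ATF4 can also induce, rose by 0.77 ± 0.15.

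The name resting went against the S phase genes, which the rule did not use. All 14 tested S phase genes were higher in ISR-high cells, with a median log2 fold change of 0.93 and sums of 1240 and 1387 CPM, against 725 and 761 CPM in lower-scoring cells. RRM2, the ribonucleotide reductase subunit that peaks in S phase, had 70.3 and 106 CPM against 22.6 and 26.3 (1.83 ± 0.13, adjusted p = 1.1e-16), the checkpoint adaptor CLSPN 113 and 108 CPM against 45.9 and 46.9 (1.29 ± 0.11) and the helicase subunit MCM5 70.9 and 74.4 CPM against 27.5 and 27.7 (1.41 ± 0.13). G2/M genes had 4 of 10 tested higher and 0 lower, with CDK1 at 18.0 and 33.3 CPM against 9.61 and 12.5 (1.18 ± 0.22).

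In cells under the library median of summed S phase transcripts, ranked anew by the markers, 480 of 14370 genes were higher (3.34%) and 460 lower (3.2%). There amino acid transporters had 6 of 10 higher, synthetases 10 of 20, ATF4 and CHOP targets 8 of 16 with 1 lower, and cholesterol and fatty acid genes 4 of 14 lower. S phase genes had 0 of 14 called there, as the choice of cells was made on them. The median of the cholesterol and fatty acid list was −0.29 there, against −0.72 among all qualifying cells.

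The labels call the cells hepatocytes, and the hepatocyte markers that passed the test, and most mesenchymal ones that did, were lower in ISR-high cells. Of 10 tested hepatocyte markers 6 were lower and 0 higher, and the list of 15 summed to 410 and 624 CPM in ISR-high cells, against 1203 and 1324 in lower-scoring cells. APOB, the structural protein of very low density lipoprotein, had 161 and 186 CPM against 413 and 439 (−1.29 ± 0.07, adjusted p = 2.8e-20). The fibrinogen chain genes differed between libraries within ISR-high cells, FGA at 9.81 and 29.1 CPM against 102 and 124 (−2.65 ± 0.17) and FGG at 14.7 and 49.6 CPM against 146 and 174 (−2.45 ± 0.16). Haptoglobin (HP) had 3.27 and 76.1 CPM against 56.5 and 73.4, so its call as lower (adjusted p = 0.00203) rests on replicate 1, and in replicate 2 alone its log2 ratio was 0.05. APOA2, AHSG, CYP3A4 and CYP2E1 had 0 UMIs in ISR-high cells and at most 0.64 CPM in lower-scoring cells, too few for a comparison.

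Of 9 tested mesenchymal markers 5 were lower and 2 higher, and the list of 11 summed to 160 and 168 CPM, against 364 and 359. The matrix gene DCN had 16.9 and 12.8 CPM in ISR-high cells, against 102 and 100.1 in lower-scoring cells, and the collagen gene COL3A1 had 5.45 and 5.98 CPM against 42.6 and 39.7. The 2 higher genes were the collagen gene COL1A1, at 9.81 and 10.3 CPM against 4.54 and 3.92 (log2 fold change 1.24 ± 0.33, adjusted p = 0.0043), and the actin-binding gene TAGLN, at 13.6 and 23.1 CPM against 5.40 and 14.8 (0.96 ± 0.31, adjusted p = 0.0183), whose groups overlap. Immune markers were near 0, with 10.4 and 11.1 CPM against 10.8 and 9.33 summed over 5 genes and PTPRC, LYZ, CD3E and MS4A1 at 0 UMIs in ISR-high cells. Endothelial markers summed to 15.3 and 11.97 CPM against 55.5 and 52.9, with VWF and CDH5 at 0. Biliary markers summed to 885 and 1057 CPM against 1121 and 1183, with EPCAM, CFTR and PROM1 at 0. Most of the biliary sum was KRT19, at 699 and 839 CPM against 856 and 922. In lower-scoring cells VWF and CDH5 had at most 0.07 CPM and EPCAM, CFTR and PROM1 at most 0.42, too few for a comparison.

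The largest falls were in genes that mark particular clusters of these cells. The chemokine gene CXCL13 had 1.09 and 6.84 CPM against 85.3 and 57.2 (log2 fold change −4.44 ± 0.28, adjusted p = 4.6e-18), and the calgranulin gene S100A9 had 9.27 and 7.69 CPM against 68.6 and 91.6 (−3.14 ± 0.22). The potassium channel gene KCNJ16 had 6.54 and 6.84 CPM against 49.7 and 49.1 (−2.87 ± 0.23), and the decoy receptor gene IL1R2 had 11.4 and 21.4 CPM against 94.4 and 77.4 (−2.49 ± 0.17). The ISR-high and lower-scoring sums did not overlap for any of the 4. They were picked among the 12 largest falls with the same direction in both libraries, so this was largely set by the choice.

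Clustering of the qualifying cells gave 5 clusters, and ISR-high cells lay in all 5. Cluster 2, led by SFTA1P, TLL1, SNAPC1 and CREB5 with the mitotic genes DLGAP5 and CCNB1 also in its top 10, held 35 of 99 (35.4%) and 43 of 102 (42.2%) ISR-high cells, against 13.9% and 18.1% of lower-scoring cells. Cluster 0, led by CXCL13, HP, LBP and FGA, held 14.1% and 8.82% of ISR-high cells, against 28.1% and 26.0% of lower-scoring cells. Cluster genes such as CXCL13 differ between the groups, so these shares are a description only.

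Lower-scoring cells were also drawn from the same clusters at like depth, but 68 draws over both libraries found no free cell. The drawn cells had medians of 17125 and 10204.5 UMIs, against 18406 and 10677.5 in ISR-high cells. Their mitochondrial share stayed higher, 9.16% and 9.21% against 6.84% and 6.94%. Against these drawn cells, 1295 of 15305 genes were higher (8.46%) and 1140 lower (7.45%). There 9 of 11 transporters, 13 of 20 synthetases, 13 of 14 S phase genes and 10 of 17 ATF4 and CHOP targets were higher, and 12 of 14 cholesterol and fatty acid genes and 5 of 10 hepatocyte markers were lower. Within cluster 2 alone, 219 of 12235 genes were higher (1.79%) and 145 lower (1.19%). There 6 of 10 transporters, 11 of 20 synthetases, 5 of 14 S phase genes and 7 of 16 ATF4 and CHOP targets were higher, and 7 of 14 cholesterol and fatty acid genes and 1 of 9 hepatocyte markers were lower.

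The summed levels of several lists shifted along the score. In replicate 1, amino acid transporters stood at 1.10, 1.28, 1.63 and 2.29 times the level of the lower 50% in the bands from 50 to 75%, 75 to 90%, 90 to 95% and the top 5%. In replicate 2 these ratios were 1.07, 1.25, 1.61 and 2.02. Synthetases reached 1.88 and 1.77 in the top 5%, and S phase genes 1.71 and 1.82. Cholesterol and fatty acid genes were at 0.81 and 0.85 in the 90 to 95% band and at 0.57 and 0.66 in the top 5%. For these 4 lists the top 5% stood farther from the lower 50% than any other band in both libraries.

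**Figure D3:**
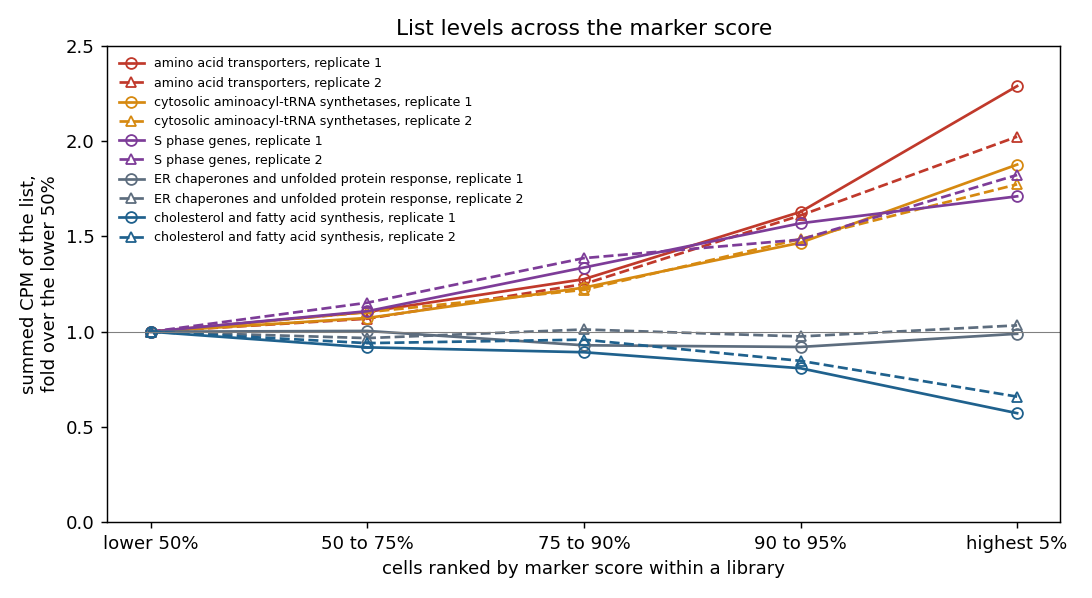
Summed CPM of 5 lists in bands of the marker score, as fold over the lower 50% of the same library, with replicate 1 solid and replicate 2 dashed. Transporters, synthetases and S phase genes climb to between 1.71 and 2.29 in the top 5%, cholesterol and fatty acid genes drop to 0.57 and 0.66, and ER chaperones stay close to 1.

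Single cells were compared at equal depth, 4000 UMIs per cell, over the 45 genes of the transporter, enzyme and synthetase lists. The thinning left out 19 shallower qualifying cells of replicate 1 and 40 of replicate 2. ISR-high cells had a median of 18 UMIs of these genes in both libraries, and lower-scoring cells a median of 10. Of ISR-high cells, 57 of 99 (57.6%) and 52 of 101 (51.5%) exceeded 17 UMIs, the 95th percentile of lower-scoring cells, against 3.91% and 4.12% of lower-scoring cells.

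For S phase genes, 15 of 99 (15.2%) and 17 of 101 (16.8%) ISR-high cells exceeded the 95th percentile of lower-scoring cells, 9 UMIs, against 4.43% and 4.52%. Cells high in both sets numbered 7 and 10. High amino acid supply without high S phase transcripts was found in 50 and 42 ISR-high cells, the reverse in 8 and 7, and neither in 34 and 42.

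**Figure D4:**
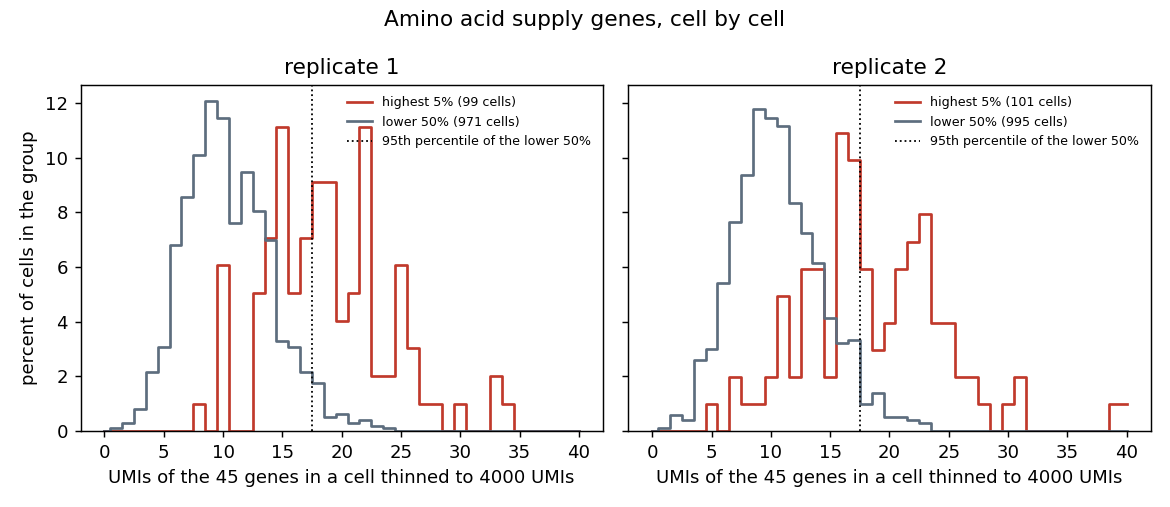
UMIs of the 45 amino acid supply genes per cell after thinning to 4000 UMIs (horizontal axis) and the percent of cells in each group (vertical axis), for each library. ISR-high cells (top 5%) centre on 18 UMIs and lower-scoring cells (lower 50%) on 10, and the dotted line marks the 95th percentile of the lower-scoring cells.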

How the data were processed

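UMI counts for each gene and barcode were deposited by the authors, who made them with Cell Ranger (7.0.0 per the file headers). The submitters' processing notes name STAR and GRCh38. How intronic reads and empty barcodes were handled is not given in the sources used here. Library totals were 85475317 and 57246647 UMIs. The libraries shared 10 barcodes, none of them of an ISR-high cell. The antibody features held 0 UMIs and were not used. Doublets and free RNA were not removed, and leaving out the 5% of cells with most UMIs was an alternative.

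Raw counts were summed per library and score group (top 5%, middle 45%, lower 50%), giving 6 sums. Cells were not treated as replicates. The sums were fitted with edgeR 4.0.16 (R 4.3.3, TMM scaling, its low-count filter, quasi-likelihood test, library as a block). P-values were adjusted by Benjamini-Hochberg over 16277 genes, of which 27 rule genes were left out of all counts. An SE is the size of the log2 fold change over the square root of F. CPM values are scaled by library totals. Both libraries carry biological replicate label 1, so the block pairs groups of cells cut from 1 library.

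Clusters came from scanpy 1.11.5 (2000 variable genes, 30 components, 15 neighbours, Leiden resolution 0.5). Promoter matches used older symbols where needed, and sets with under 80% matched are void and not given. The members and gene lists were chosen with earlier results of these data known. Some genes that the next rule would name are not reported here. Named genes were the 12 highest and 12 lowest called fold changes at a mean of at least 20 CPM, with up to 6 called and 2 uncalled genes per list. The other genes named were chosen after their values were seen: ATF3, PPP1R15A, KLHL24, PSPH, GOT1, WARS, AARS, CARS, TARS, NARS and TAGLN.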

Additional observations from a re-analysis of the deposited data

How the results depend on the processing

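Counts of higher and lower genes, 1919 and 1654, became 1246 and 886 with DESeq2, 917 and 935 with the top 2%, 391 and 347 with cells thinned to 4000 UMIs and 1021 and 930 with the 5 regulator markers. They were 480 and 460 in low S phase cells and 219 and 145 in cluster 2 alone, both with fewer cells and chosen after seeing the data. Without the replicate block they were 1891 and 1631. With no low-count filter they were 1374 and 1648. Transporters and synthetases had 0 lower genes in all 19 alternatives, with 4 to 9 and 10 to 15 higher, and S phase genes 0 to 14 higher.

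Held-out log2 ratios of CPM + 1 shrank after thinning: ATF4 to 1.47, DDIT3 to 1.70, TRIB3 to 1.95, CHAC1 to 2.81, SESN2 to 0.90, PSAT1 to 1.48, PHGDH to 1.27 and STC2 to 1.70. ASNS (−0.0065) and MTHFD2 (0.11) changed sign near 0 counts. Of 127 called genes examined, 13 changed sign somewhere. In low S phase cells these were HSP90B1 (0.077), HSPA8 (0.056), CCN2 (−0.51), RRM2 (−0.50) and CCNA2 (−0.43). In cluster 2 they were PLK2 (−0.077) and HSPH1 (−0.036), and after thinning TP53I3 (−0.016) and TAGLN (−0.095). With the regulator markers they were HP (0.085), COL1A1 (−0.018) and SPP1 (2.43), and with the other 5 markers HSPA5 (−0.19). The biliary list gene SPP1 passed edgeR's test as higher there (adjusted p = 7.5e-06), against −0.93 ± 0.29 in the main comparison. HSPA5 passed as lower (adjusted p = 0.0371), while HP and COL1A1 did not pass (adjusted p = 0.862 and 0.987). HP was at 0.051 without replicate 1 and at −3.75 without replicate 2. The cause was not tested. CEBPB, SLC38A2 and CDKN1A, which were not called, took the other sign in 8, 8 and 5 of 19 alternatives and were called in 0. Leaving out a replicate leaves 1 sum per group and no test, so only fold changes were computed.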

Other observations

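Immediate early and heat-shock genes moved in both directions. Of 17 immediate early genes 7 were higher in ISR-high cells and 3 lower, with a median log2 fold change of 0.08. With the top 2% of cells 2 were higher, and over 19 alternatives edgeR or DESeq2 called 0 to 7 higher, the fewest in cluster 2 alone. CCN1, a matricellular target of YAP, had 311 and 299 CPM in ISR-high cells, against 179 and 184 in lower-scoring cells (0.78 ± 0.06, SE, adjusted p = 5.6e-14). JUN had 53.4 and 54.7 CPM against 36.5 and 29.9 (0.70 ± 0.14, adjusted p = 1.2e-04). Of 14 heat-shock genes 4 were higher and 2 lower. HSP90AB1 had 1663 and 1576 CPM against 1314 and 1371 (0.30 ± 0.05, adjusted p = 1.4e-06), a value that is uncertain because near-identical copies can share its reads, and the small heat-shock gene HSPB1 had 253 and 222 CPM against 314 and 302 (−0.34 ± 0.07, adjusted p = 8.3e-05).

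Ribosomal protein genes, looked at after their values were seen and so given without a test, summed to 156449 and 150886 CPM in ISR-high cells, against 129439 and 130405 in lower-scoring cells. Their 84 genes had a median log2 fold change of 0.27. Many of these genes have near-identical processed copies, which can share reads.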
